A study of Mus musculus with 8 samples.

Results

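RNA of the whole liver was compared between female mice with and without Keap1, in livers that carried an activated oncogene and mutant p53. Of the 8 arrays of the series, 4 were used for this comparison: the 2 AKP::Keap1 females (codes KPKF1 and KPKF2) and the 2 AKP females (codes KPF1 and KPF2), chosen by the labels with no measured value. In AKP females the liver expresses the activated oncogene together with p53 R172H. AKP::Keap1 females have the same 2 alterations and a Keap1 deletion, so the oncogene and mutant p53 are shared by both groups. The 4 males of the same 2 genotypes entered the fit and serve as the comparison by sex at the end. The promoter or Cre that drives the liver-specific alleles, the strain, the age and the tumour burden of the mice are not given in the sources used here.

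Keap1 is the adaptor of a Cul3 ubiquitin ligase that marks the transcription factor Nrf2 (gene Nfe2l2) for degradation, and oxidants or electrophiles relieve that hold. Free Nrf2 pairs with small Maf proteins at antioxidant response elements and raises genes for glutathione synthesis and use, quinone and carbonyl reduction, NADPH supply and export pumps. In liver these genes are known for drug and oxidant defence in hepatocytes, and the series title names bile duct cancer as the disease these mice model.

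Every level below is log2 of the processed signal minus that array's 75th percentile, every difference is AKP::Keap1 minus AKP in females on that scale with its standard error, and the mice of a group are given in the order 1, 2. A gene was called at an adjusted p below 0.05, two-sided, in limma over 15834 genes with n = 2 mice per group. The standard errors and p-values take each gene's spread from all 8 arrays, males included, and not from the females alone. Between 68.0% and 70.3% of the spots of these 4 arrays were well above background and no spot was saturated. Across genes, which share the array and are not independent, the 2 mice of a group correlated at 0.9905 in AKP and 0.9895 in AKP::Keap1. Over the 4 arrays the first principal component held 76.4% of the variance and separated the genotypes. Each genotype lay on a slide of its own, so slide and genotype cannot be told apart in any value below. The RNA came from bulk tissue, where fewer cells of a type and less RNA per cell cannot be told apart. The labelled sex and tissue were checked first. The Y-linked genes Ddx3y, Eif2s3y and Uty were not well above background on any of the 4 arrays, while Xist was above it on each. Uty was still called higher in AKP::Keap1, at a difference of 1.11, so a call can arise from signal below background alone. The hepatocyte products Ahsg, at 7.83 and 7.97 in AKP and 7.97 and 7.58 in AKP::Keap1, and Asgr1, at 6.27 and 6.27 in AKP and 6.42 and 6.31 in AKP::Keap1, stood far above the 75th percentile of every array.

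Keap1 itself was lower in both AKP::Keap1 females than in either AKP female. Its level was 1.68 and 1.76 in AKP and -0.52 and -0.72 in AKP::Keap1, without overlap, a difference of -2.34 ± 0.15 (adjusted p = 0.00145) that held without each mouse in turn. The signal stayed well above background in both AKP::Keap1 mice, and the files leave unsaid which part of the gene the probe reads. A probe outside the deleted part would check nothing. Of 13 genes listed around Keap1 and Nrf2, 12 were tested, of which 2 rose and 3 fell (Nfe2l3 was not tested). Over all 15834 genes tested, 21.4% were called, 12.3% higher and 9.1% lower. Cul3, the scaffold of the ligase, was 0.44 and 0.55 in AKP and -0.43 and -0.65 in AKP::Keap1 and fell, with a difference of -1.03 ± 0.13 (adjusted p = 0.00715). The related factor Nfe2l1, known for proteasome genes, fell from -1.25 and -1.14 to -2.77 and -2.57, a difference of -1.47 ± 0.12 (adjusted p = 0.00277). Neither gene overlapped between the groups. Mafg, a small Maf partner of Nrf2, rose by 0.84 ± 0.13 (adjusted p = 0.0117), with the call lost without AKP female 2 or AKP::Keap1 female 2 (adjusted p = 0.0536 to 0.0589). The ligase subunit Rbx1 also passed, at 0.47 ± 0.11 (adjusted p = 0.033), with the call lost without AKP female 1, AKP female 2, AKP::Keap1 female 1 or AKP::Keap1 female 2 (adjusted p = 0.0935 to 0.119), and 2 further Rbx1 probes gave -0.03 and 0.44. The Nrf2 mRNA, Nfe2l2, was 3.06 and 3.20 against 2.55 and 2.75 and was not called, at -0.48 ± 0.14 (adjusted p = 0.0606). The Nrf2 competitor Bach1 had 0.00 ± 0.34 (adjusted p = 0.999), the autophagy adaptor Sqstm1 -0.14 ± 0.13 (adjusted p = 0.477), and Trp53 0.18 ± 0.16 (adjusted p = 0.45), none called. Whether the Trp53 probe separates mutant from normal RNA is not given in the sources used here.

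Between the genotypes 3390 genes were called in females, 1949 higher and 1441 lower, and 1098 of the higher and 557 of the lower ones differed at least 2-fold. Called or not, 9.38% of the genes tested were at least 2-fold higher and 4.78% at least 2-fold lower. At an unadjusted p below 0.05 there were 6021. The count rested on all 4 mice: leaving out AKP female 1 gave 1828 and AKP female 2 gave 729, and leaving out AKP::Keap1 female 1 gave 2240 and AKP::Keap1 female 2 gave 1438. Still, 605 genes, 336 higher and 269 lower, were called in the same direction in each of these fits. The split depended on the scaling, with 57.5% of calls higher here, 51.2% after quantile normalization, 40.2% after a shift to the array median and 72.5% with no scaling. The median difference of all genes was 0.047, and it moved to -0.08 with the median shift and to 0.16 with no scaling. Dim genes leaned upward: of 10 equal bins by level, the dimmest had a median difference of 0.31 and the brightest 0.023. On the array 10306 genes, 65.1%, did not overlap between the 2 groups, so lack of overlap alone marks little here. Of the genes called higher, 194 were not well above background in either AKP female, and of those called lower, 53 were not in either AKP::Keap1 female. Where both mice of the other group were above background, the change is given as a lower bound. Among 766 called genes with further probes, 135 had a probe of opposite sign.

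**Figure D1:**
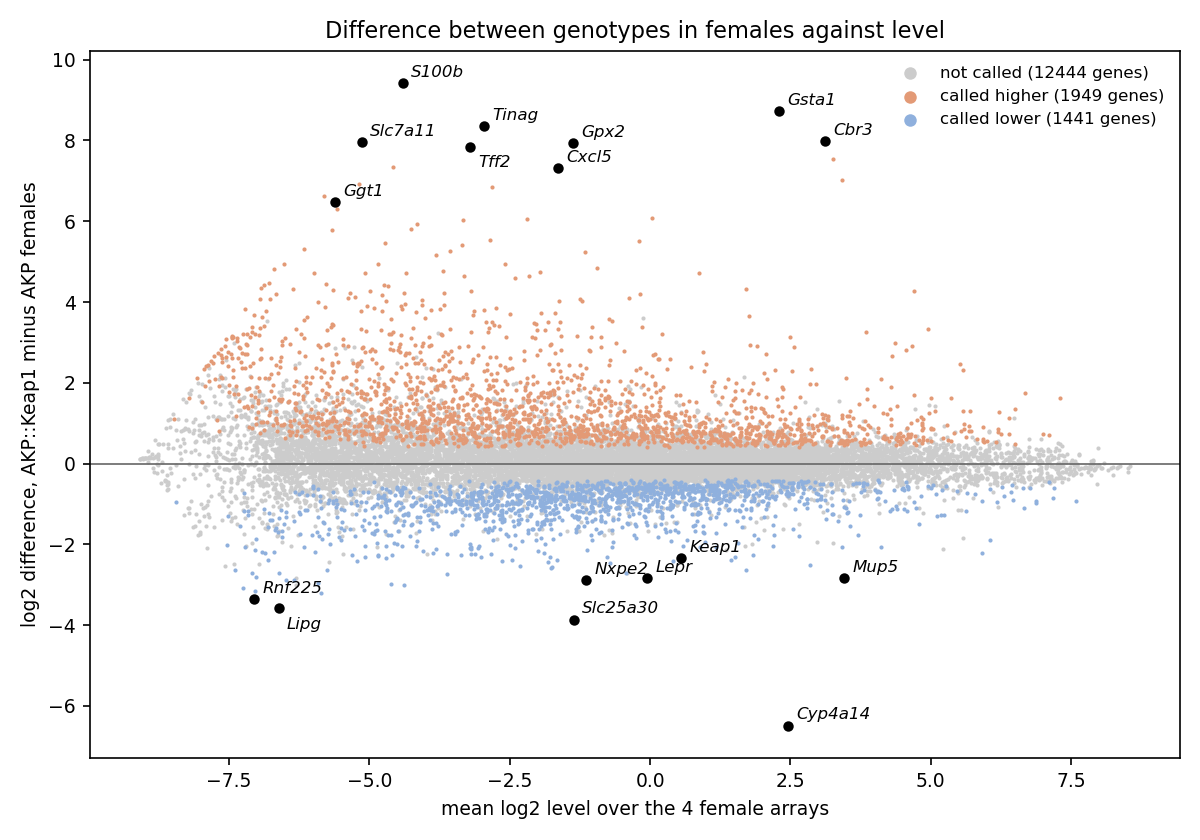
Log2 difference between AKP::Keap1 and AKP females (vertical axis) against the mean log2 level over the 4 female arrays (horizontal axis) for 15834 genes, with called genes in colour and named genes in black. The largest rises span the range of levels, from S100b, which was below background in AKP, to Gsta1 and Cbr3 among the brighter genes, and Cyp4a14 has the largest fall.

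The largest rises joined detoxification enzymes with genes near or below background in the AKP livers. Among called genes above background in both mice of the higher group, predicted genes aside, the 14 largest fitted rises were S100b, Gsta1, Tinag, Cbr3, Slc7a11, Gpx2, Tff2, Fam83e, Cxcl5, Gsta2, Slc1a1, Gabrp, Tmem45b and Ggt1, and each was called without each mouse in turn. S100b, a calcium-binding protein best known from glia, was -9.22 and -9.02 in AKP, where it was not well above background, and -0.27 and 0.88 in AKP::Keap1. Its rise was at least 149-fold (adjusted p = 0.000583). Tff2, a trefoil peptide of the gastric mucosa, went from -6.75 and -7.51, not above background, to -0.28 and 1.71, a rise of at least 185-fold (adjusted p = 0.00327). The AKP::Keap1 mice lay well apart from each other in Tff2, and both lay far above the AKP mice. Tinag, a basement membrane protein of kidney tubules above background in 1 of the 2 AKP mice, was -6.35 and -7.93 against 1.26 and 1.15, with a difference of 8.35 ± 0.52 (adjusted p = 0.00145). The neutrophil attractant Cxcl5 was -5.45 and -5.16 in AKP and 0.99 and 3.03 in AKP::Keap1, a difference of 7.31 ± 0.61 (adjusted p = 0.00277). Gabrp, the pi subunit of the GABA-A receptor, rose from -6.08 and -6.40 to -0.27 and 1.49, by 6.84 ± 0.53 (adjusted p = 0.00233). Groups did not overlap for any of the 14, because the choice required it. The other bounds were at least 64.2-fold for Fam83e (adjusted p = 0.00164), at least 36.5-fold for the glutamate and cysteine carrier Slc1a1 (adjusted p = 0.000953) and at least 21.5-fold for Tmem45b (adjusted p = 0.00184).

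The largest falls were smaller, and several lost their call when 1 mouse was left out. The 15 largest falls, chosen in the same way, were Cyp4a14, Slc25a30, Lipg, Rnf225, Slc34a2, Pnliprp1, Hsd3b5, Cd163, Olfr125, Dsg1b, Nxpe2, Dmrta1, Lepr, Mup5 and Kcnk10. Cyp4a14, a fatty acid hydroxylase known as a PPAR alpha target, was 5.41 and 6.01 in AKP and -0.39 and -1.18 in AKP::Keap1. The groups lay far apart at -6.49 ± 1.68 (adjusted p = 0.041). The female standard deviations, 0.42 in AKP and 0.55 in AKP::Keap1, were smaller than that standard error, which draws on the spread of all 8 arrays. The call was lost without AKP female 1, AKP female 2, AKP::Keap1 female 1 or AKP::Keap1 female 2. Over the other settings tried the difference ran from -6.88 to -6.10. Nxpe2 fell from 0.25 and 0.35 to -2.67 and -2.51, a difference of -2.89 ± 0.19 (adjusted p = 0.00164), and was called without each mouse in turn. So were Lipg, the endothelial lipase, lower by at least 3.69-fold (adjusted p = 0.0069), the olfactory receptor Olfr125, lower by at least 4.82-fold (adjusted p = 0.00204), and Rnf225, lower by at least 2.52-fold (adjusted p = 0.00359). These 3 were not above background in either AKP::Keap1 female. Mup5, a major urinary protein, was 4.65 and 5.10 in AKP and 1.94 and 2.13 in AKP::Keap1, a difference of -2.84 ± 0.28 (adjusted p = 0.00381) that held without each mouse. Its family is nearly identical in sequence, and whether the probe tells Mup5 from its neighbours is not given in the sources used here. The leptin receptor Lepr fell from 0.62 and 2.11 to -1.03 and -1.93, a difference of -2.84 ± 0.63 (adjusted p = 0.0265), with the call lost without AKP female 2 or AKP::Keap1 female 2 (adjusted p = 0.108 to 0.114), and its 2 other probes gave -3.49 and -0.42. The mitochondrial carrier Slc25a30, at -3.87 ± 0.60 (adjusted p = 0.0108), lost its call without AKP female 2 or AKP::Keap1 female 2 (adjusted p = 0.052 to 0.0622). The phosphate carrier Slc34a2 (at least 5.49-fold lower, adjusted p = 0.0297) lost its call in each of the 4 fits that left out 1 mouse, at an adjusted p of 0.0944 to 0.113. Pnliprp1, a lipase-related protein of the pancreas, was -6.58 and -4.36 in AKP and -8.36 and -8.88 in AKP::Keap1, where it was not above background, at least 2.37-fold lower (adjusted p = 0.0228), with the call lost without AKP::Keap1 female 1 or AKP::Keap1 female 2 (adjusted p = 0.0575 to 0.0978). Of 11 tested pancreatic acinar genes, 11 were higher in AKP female 2 than in AKP female 1, with a median gap of 0.89, and their summed level ran from -0.07 to 0.82 in AKP and from 0.76 to 0.94 in AKP::Keap1. The part of pancreatic RNA in the Pnliprp1 value was not tested.

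Genes of glutathione chemistry rose together, led by the transferases that attach glutathione to electrophiles. Of 24 glutathione transferases tested, 13 rose and none fell, and their median difference was 0.91 beside 0.047 over all genes. The alpha-class gene Gsta1 was -0.89 and -3.25 in AKP and 6.74 and 6.56 in AKP::Keap1, a difference of 8.72 ± 0.70 (adjusted p = 0.00267). Its neighbour Gsta2 was 1.12 and -1.30 against 7.03 and 6.82, at 7.02 ± 0.72 (adjusted p = 0.00421). In both genes AKP female 2 was far below AKP female 1, while the AKP::Keap1 mice were close to each other. The mu-class gene Gstm3 rose from 2.90 and 2.25 to 6.97 and 6.71, by 4.27 ± 0.23 (adjusted p = 0.00105), and Gstm2 from 3.07 and 2.89 to 5.69 and 5.58, by 2.65 ± 0.12 (adjusted p = 0.000894). The pi-class gene Gstp1, an abundant transferase, was 4.47 and 4.35 in AKP and 6.83 and 6.64 in AKP::Keap1, and rose by 2.32 ± 0.15 (adjusted p = 0.00145). Further rises were 3.14 ± 0.20 for Gstm4, 3.13 ± 0.30 for the microsomal Mgst2, 2.25 ± 0.16 for Gstm5, 2.02 ± 0.38 for Gsta4, 1.63 ± 0.18 for Gstm1, 1.26 ± 0.34 for Mgst3, 0.96 ± 0.13 for the omega-class Gsto1 and 0.87 ± 0.21 for Gstm6 (SE in each case). Of the 13, 9 were called without each mouse in turn, and Gsta4, Mgst3, Gsto1 and Gstm6 were not, at adjusted p-values up to 0.0804, 0.188, 0.0508 and 0.144. Theta, kappa and zeta class genes did not pass, for example Gstt1 at 0.30 ± 0.22 (adjusted p = 0.359), Gstk1 at 0.29 ± 0.18 (adjusted p = 0.273) and Gstz1 at 0.01 ± 0.14 (adjusted p = 0.977). Some of these genes are close in sequence to others of their class, and the files do not say whether their probes tell them apart. Every one of the 24 was lower in AKP female 2 than in AKP female 1, by a median of 0.43.

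Around glutathione itself the largest rises were in cystine import and in glutathione breakdown. Of 16 genes tested, 6 rose and none fell, with a median of 0.26. Slc7a11, which brings in cystine in exchange for glutamate, was -9.21 and -9.01 in AKP, not above background, and -1.76 and -0.56 in AKP::Keap1, at least 53.9-fold higher (adjusted p = 0.000894). Its partner chain Slc3a2 was not called, at 0.02 ± 0.16 (adjusted p = 0.931). Gclc, the catalytic subunit of the rate-limiting step of synthesis, was 3.63 and 3.58 against 5.20 and 4.70 and rose by 1.34 ± 0.19 (adjusted p = 0.0088), with the call lost without AKP female 2 (adjusted p = 0.0534). The modifier subunit Gclm, at -0.18 and -0.06 in AKP and 0.62 and 0.01 in AKP::Keap1, had 0.44 ± 0.21 (adjusted p = 0.18) and was not called. Gsr, which returns oxidised glutathione to its reduced form, rose from 3.85 and 3.78 to 4.82 and 4.74, by 0.96 ± 0.12 (adjusted p = 0.00607). Ggt1, the surface enzyme that breaks glutathione down, was -8.72 and -8.97 in AKP, not above background, and -2.57 and -2.17 in AKP::Keap1, at least 23.3-fold higher (adjusted p = 0.000923). The related Ggt6 (1.60 ± 0.40) and Ggt7 (1.04 ± 0.22) also passed, Ggt6 with the call lost without AKP female 2, AKP::Keap1 female 1 or AKP::Keap1 female 2 (adjusted p = 0.0527 to 0.13) and Ggt7 with the call lost without AKP female 1, AKP female 2 or AKP::Keap1 female 2 (adjusted p = 0.0572 to 0.0988). Slc7a11, Ggt1 and Gsr were called without each mouse in turn.

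Among 25 genes against peroxides and oxidised thiols, 9 rose and 1 fell, with a median of 0.42. Gpx2, a glutathione peroxidase of gut epithelium, was -5.39 and -5.29 in AKP and 2.34 and 2.85 in AKP::Keap1, a difference of 7.93 ± 0.18 (adjusted p = 4.45e-05), the smallest adjusted p in the table together with Cbr3. Srxn1, which repairs overoxidised peroxiredoxins, was 3.32 and 3.1 against 6.26 and 5.99, at 2.91 ± 0.16 (adjusted p = 0.00105). These 2 kept their calls without each mouse in turn. The thioredoxin arm rose less: Txnrd1, the cytosolic thioredoxin reductase, by 0.93 ± 0.15 (adjusted p = 0.0125) with the call lost without AKP female 1 or AKP::Keap1 female 2 (adjusted p = 0.0515 to 0.0517), and Txn1 by 0.86 ± 0.12 (adjusted p = 0.00874) with the call lost without AKP female 2 (adjusted p = 0.0529). Gpx4, which protects membrane lipids, was 4.49 and 4.36 in AKP and 5.88 and 5.55 in AKP::Keap1, at 1.29 ± 0.20 (adjusted p = 0.0103), with the call lost without AKP female 2 (adjusted p = 0.0615). Catalase, the peroxisomal enzyme that splits hydrogen peroxide, went the other way. Cat was 5.06 and 4.86 against 3.88 and 3.80, at -1.12 ± 0.21 (adjusted p = 0.0165), but a second probe gave 0.05, and the fit had the call lost without AKP female 1, AKP female 2 or AKP::Keap1 female 2 (adjusted p = 0.0641 to 0.0708). Peroxiredoxins and superoxide dismutases mostly did not pass, for example Prdx1 at 0.02 ± 0.13 (adjusted p = 0.924), Sod1 at 0.05 ± 0.15 (adjusted p = 0.828) and Sod2 at 0.18 ± 0.15 (adjusted p = 0.426).

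Quinone, carbonyl and epoxide enzymes had 12 rises and 1 fall among 22 genes tested, and a median of 0.94. Cbr3, a carbonyl reductase, was -0.72 and -1.02 in AKP and 6.99 and 7.24 in AKP::Keap1, a difference of 7.98 ± 0.18 (adjusted p = 4.45e-05). Nqo1, the quinone reductase most often read as a marker of Nrf2 activity, was 0.24 and -0.36 against 3.60 and 3.59, at 3.65 ± 0.32 (adjusted p = 0.00308). Cbr1 rose from 2.91 and 2.85 to 5.93 and 5.80, by 2.99 ± 0.15 (adjusted p = 0.000953). In these 3 genes each AKP::Keap1 mouse lay far above each AKP mouse, and the mice of a group lay close together. The epoxide hydrolase Ephx1 rose by 2.48 ± 0.17 (adjusted p = 0.00184), the biliverdin and flavin reductase Blvrb by 2.09 ± 0.15 (adjusted p = 0.00196) and the aldo-keto reductase Akr1c19 by 2.13 ± 0.21 (adjusted p = 0.00404). Akr1c18, an aldo-keto reductase of the same family that inactivates progesterone, fell from 3.02 and 3.38 to 0.97 and 1.37, a difference of -2.03 ± 0.24 (adjusted p = 0.00594). These 7 genes were called without each mouse in turn. Akr1b7, Akr1b8, Akr1b10, Akr1b3, Cbr2 and Ptgr1 also rose, by 0.84 to 2.56, each losing its call without at least 1 mouse, at adjusted p-values up to 0.0946, 0.0572, 0.0887, 0.0842, 0.0721 and 0.0525. The soluble epoxide hydrolase Ephx2, at -0.11 ± 0.15 (adjusted p = 0.626), and Nqo2, at 0.27 ± 0.19 (adjusted p = 0.34), were not called.

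NADPH supply and export moved with these enzymes. Of 12 genes of NADPH supply, 4 rose and 1 fell, with a median of 0.27. Pgd, of the oxidative pentose phosphate branch, was 1.85 and 1.88 in AKP and 3.85 and 3.80 in AKP::Keap1, a difference of 1.96 ± 0.11 (adjusted p = 0.00105). G6pdx, the entry enzyme of that branch, was 0.85 and 0.54 against 1.99 and 2.56, at 1.58 ± 0.27 (adjusted p = 0.014), with the call lost without AKP female 2 or AKP::Keap1 female 2 (adjusted p = 0.057 to 0.0778). Tkt rose by 1.14 ± 0.13 (adjusted p = 0.00551) and Taldo1 by 0.80 ± 0.11 (adjusted p = 0.00825), Taldo1 with the call lost without AKP female 2. Both are enzymes of the non-oxidative branch, and the other listed genes of that branch, Rpia and Rpe, were not among the 4 rises. Idh1, the cytosolic isocitrate dehydrogenase that also makes NADPH, fell from 2.37 and 2.15 to 0.86 and 0.84, a difference of -1.41 ± 0.13 (adjusted p = 0.00342). The malic enzyme Me1, at 0.85 ± 0.27 (adjusted p = 0.0736), was not called. Of 15 ABC pumps, 6 rose and none fell, with a median of 0.55. Abcc4, a basolateral exporter of conjugates, was -1.47 and -1.50 against 2.93 and 3.53, at 4.71 ± 0.21 (adjusted p = 0.000894). Abcc12 rose from -5.57 and -5.42 to -2.69 and -2.77, by 2.76 ± 0.19 (adjusted p = 0.00184), and Abcc5 by 1.55 ± 0.16 (adjusted p = 0.00436), although its 3 further probes ranged from -0.24 to 1.58. The cholesterol pump subunit Abcg5 rose by 0.94 ± 0.12 (adjusted p = 0.00672), the canalicular pump Abcc2 by 0.55 ± 0.10 (adjusted p = 0.0183) with the call lost without AKP female 1, AKP female 2, AKP::Keap1 female 1 or AKP::Keap1 female 2 (adjusted p = 0.0601 to 0.0813), and Abcg2 by 1.12 ± 0.17 (adjusted p = 0.0105) with the call lost without AKP female 2 (adjusted p = 0.057). Abcg8, the partner of Abcg5, at 0.40 ± 0.14 (adjusted p = 0.0871), and the bile salt pump Abcb11, at -0.32 ± 0.29 (adjusted p = 0.465), were not called. Ugdh, which makes the sugar donor for glucuronidation, was 3.70 and 2.61 in AKP and 6.08 and 5.87 in AKP::Keap1, at 2.82 ± 0.34 (adjusted p = 0.00613), while of 14 other glucuronidation genes 1 passed, Ugt2b35, at 0.92 ± 0.16 (adjusted p = 0.0135), with the call lost without AKP female 2 or AKP::Keap1 female 2 (adjusted p = 0.0618 to 0.0666). Of 16 heme and iron genes 1 rose, the heme carrier Slc48a1, by 1.30 ± 0.12 (adjusted p = 0.00359). Heme oxygenase Hmox1, often counted as an Nrf2 gene, was 1.73 and 1.43 against 1.48 and 1.46, overlapping, at -0.11 ± 0.32 (adjusted p = 0.832).

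**Figure D2:**
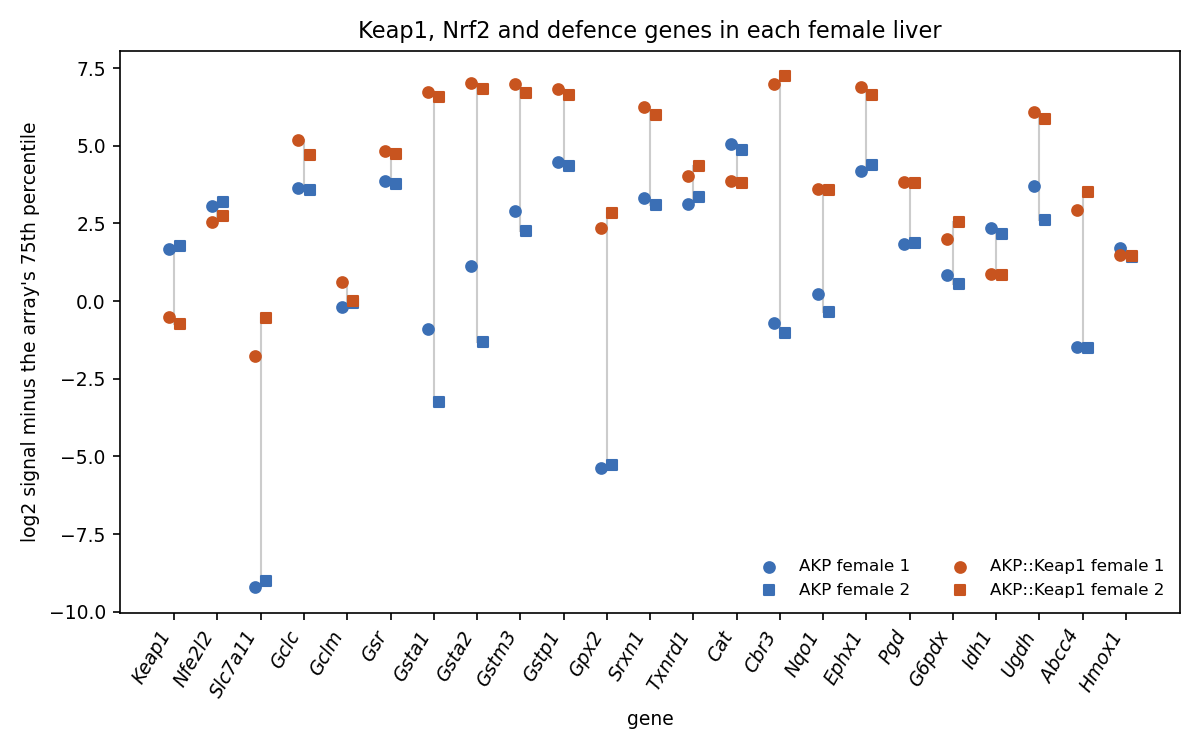
Log2 level relative to the array's 75th percentile (vertical axis) of Keap1, Nrf2 (Nfe2l2) and defence genes (horizontal axis) in each of the 4 female livers, AKP in blue and AKP::Keap1 in orange. Gsta1, Slc7a11, Gpx2 and Cbr3 span the widest gaps, Keap1, Cat and Idh1 lie lower in AKP::Keap1, and Hmox1 overlaps.

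To set these calls beside promoter sequence, the 250 bases before each gene's start were searched for the core of the antioxidant response element, TGACNNNGC, on both strands, in RefSeq sequence of GRCm38.p6. No other motif was searched. Of the 50 genes called higher in the 6 lists of glutathione synthesis, transferases, peroxide and thiol defence, quinone and carbonyl enzymes, NADPH supply and ABC pumps, 45 had a window, and 6 of these, 13.3%, held the core. The share was 13.3% of the 12597 tested genes with a window and 14.5% of the 55 list members with a window that were not called higher. The 6 genes were Ggt1, Gstm5, Txnrd1, G6pdx, Abcc2 and Abcc4. A match is a description of these letters and no proof of a site, and elements farther away lie outside the window. To show where the core sits, 4 windows from 3 of the lists are printed 5′ to 3′ on the gene's strand with the core in capitals, ending at the base before the start. They lie at chrX:74428881-74429130 on the minus strand for G6pdx, chr3:107895604-107895853 on the plus strand for Gstm5, chr19:43782058-43782307 on the plus strand for Abcc2 and chr14:118706220-118706469 on the minus strand for Abcc4, where the core begins 57, 42, 98 and 25 bases before the start.
G6pdx: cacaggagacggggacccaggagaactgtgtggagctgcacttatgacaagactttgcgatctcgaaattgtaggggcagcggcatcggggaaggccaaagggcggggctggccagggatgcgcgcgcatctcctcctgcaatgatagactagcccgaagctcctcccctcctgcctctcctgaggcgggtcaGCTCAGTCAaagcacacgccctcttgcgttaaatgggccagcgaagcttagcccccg
Gstm5: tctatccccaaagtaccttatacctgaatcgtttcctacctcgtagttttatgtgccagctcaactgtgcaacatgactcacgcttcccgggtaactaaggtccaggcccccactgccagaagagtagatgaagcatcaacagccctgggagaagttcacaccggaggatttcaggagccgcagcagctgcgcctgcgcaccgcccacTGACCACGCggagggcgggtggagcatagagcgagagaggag
Abcc2: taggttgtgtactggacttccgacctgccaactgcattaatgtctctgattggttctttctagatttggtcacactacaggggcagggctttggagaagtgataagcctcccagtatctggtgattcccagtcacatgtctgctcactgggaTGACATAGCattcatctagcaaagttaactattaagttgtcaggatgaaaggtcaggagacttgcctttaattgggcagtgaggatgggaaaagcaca
Abcc4: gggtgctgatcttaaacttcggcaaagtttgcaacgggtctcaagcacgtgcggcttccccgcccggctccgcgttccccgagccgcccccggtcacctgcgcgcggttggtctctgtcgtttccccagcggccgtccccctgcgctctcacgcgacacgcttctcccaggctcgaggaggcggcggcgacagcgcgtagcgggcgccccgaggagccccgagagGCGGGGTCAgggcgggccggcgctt
In G6pdx and Abcc4 the capitals read the core on the opposite strand. Among these 4 genes the log2 differences in females run from 0.55 ± 0.10 for Abcc2 to 4.71 ± 0.21 for Abcc4, and Gstm5 had 1.05 and 0.77 in AKP and 3.16 and 3.15 in AKP::Keap1. Gsta1, Cbr3, Gpx2 and Slc7a11, whose rises were larger than those of these 4, had no core in the window searched, and neither had Nqo1.

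Aldehyde and sulfate conjugation enzymes moved both ways. Of 26 aldehyde dehydrogenases and carboxylesterases, 6 rose and 3 fell, with a median of -0.12. Aldh3a1, a dehydrogenase of the cornea and stomach, was 0.89 and 1.22 in AKP and 2.97 and 2.59 in AKP::Keap1, at 1.73 ± 0.18 (adjusted p = 0.00442), called without each mouse in turn, and Aldh1a1, of retinoid oxidation, had 1.34 ± 0.29 (adjusted p = 0.0256) with the call lost without AKP female 2, AKP::Keap1 female 1 or AKP::Keap1 female 2 (adjusted p = 0.0645 to 0.106). Aldh3a2, the fatty aldehyde dehydrogenase, fell from 2.64 and 2.68 to -0.08 and 0.79, at -2.31 ± 0.35 (adjusted p = 0.0103), with the call lost without AKP female 2 (adjusted p = 0.0593). Of 14 sulfotransferase genes 1 rose and 3 fell. Sult2b1, which acts on cholesterol in skin, was -6.00 and -6.67 against -3.23 and -1.77, at 3.84 ± 0.47 (adjusted p = 0.00634), and was above background in 1 of the 2 AKP mice. Sult2a8, a hepatocyte sulfotransferase, fell from 5.58 and 5.49 to 4.0 and 4.08, at -1.49 ± 0.25 (adjusted p = 0.0131), with the call lost without AKP female 1, AKP female 2 or AKP::Keap1 female 2 (adjusted p = 0.0521 to 0.0647).

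Bile duct genes lay higher in both AKP::Keap1 females, and those mice differed from each other. Of 21 bile duct markers tested, 12 rose and none fell, with a median of 1.84, or 1.79 with genes below background set at their bound. Tspan8, a tetraspanin of gut and duct epithelium, was -2.29 and -3.61 in AKP and 2.16 and 2.95 in AKP::Keap1, at 5.50 ± 0.52 (adjusted p = 0.00356). Anxa13 was -3.22 and -4.33 against 1.42 and 1.52, at 5.25 ± 0.41 (adjusted p = 0.00243), and the tight junction gene Cldn7 rose from -2.04 and -2.80 to 0.89 and 2.48, by 4.10 ± 0.52 (adjusted p = 0.0069). Sox9, a transcription factor of duct and progenitor cells, was -2.93 and -3.79 against -0.77 and -0.35, at 2.80 ± 0.33 (adjusted p = 0.00581). Those 4 and the duct keratin Krt19 did not overlap between groups. Krt19 was -2.0 and -3.03 in AKP and 0.37 and 1.76 in AKP::Keap1, at 3.58 ± 0.50 (adjusted p = 0.00869), and these 5 were called without each mouse in turn. Epcam had 3.67 ± 0.77 (adjusted p = 0.0229) with the call lost without AKP female 1, AKP female 2 or AKP::Keap1 female 2 (adjusted p = 0.0524 to 0.112), and the secreted Spp1 3.27 ± 0.56 (adjusted p = 0.0138) with the call lost without AKP female 2 or AKP::Keap1 female 2 (adjusted p = 0.0547 to 0.056). The chloride channel Cftr, at -0.20 ± 0.79 (adjusted p = 0.881), and Prom1, at 0.58 ± 0.47 (adjusted p = 0.403), were not called. In AKP::Keap1 female 2, 20 of 21 markers were higher than in AKP::Keap1 female 1, by a median of 1.07, and in AKP female 2, 20 of 21 were lower than in AKP female 1, by a median of 0.86. Their summed level ran from 3.18 to 4.31 in AKP and from 5.85 to 6.87 in AKP::Keap1. Of 19 tested transcription factors of biliary and progenitor cells, 9 rose and none fell, with a median of 0.83. The epithelial factor Ehf was -7.21 and -7.45 in AKP, not above background, and -3.02 and -1.75 in AKP::Keap1, at least 23.1-fold higher (adjusted p = 0.00545). Klf5 rose by 4.71 ± 0.51 (adjusted p = 0.00459) and the forkhead factor of ciliated cells, Foxj1, by 3.82 ± 0.64 (adjusted p = 0.0128), with the call lost without AKP female 2 or AKP::Keap1 female 2 (adjusted p = 0.0558 to 0.0595). Yap1, at 0.10 ± 0.12 (adjusted p = 0.567), and the Notch effector Hes1, at 0.54 ± 0.25 (adjusted p = 0.161), were not called.

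Rises outnumbered falls in the other epithelial lists, as they did over all genes (1949 against 1441). Called shares were 43.3% for claudins, S100 proteins and annexins, 54.5% for integrins and laminins and 43.8% for fetal and tumour markers. The gastric and mucin share, 25%, was near the 21.4% over all genes. Of 30 claudins, S100 proteins and annexins tested, 12 rose and 1 fell, and of 22 integrins and laminins, 10 rose and 2 fell. S100a14 was -7.70 and -6.94 in AKP, not above background, and -3.79 and -2.61 in AKP::Keap1, at least 13.1-fold higher (adjusted p = 0.00426), and Anxa2 rose from 3.1 and 2.77 to 4.47 and 5.12, by 1.86 ± 0.23 (adjusted p = 0.00662). Itgb4, the integrin chain of hemidesmosomes, was -3.57 and -4.06 against -1.09 and 0.43, at 3.48 ± 0.48 (adjusted p = 0.00835), with the call lost without AKP female 2 (adjusted p = 0.0534). Itgb1, the common beta chain, fell from 2.24 and 2.14 to 1.04 and 1.01, a difference of -1.17 ± 0.11 (adjusted p = 0.00344), and was called without each mouse in turn. Of 16 fetal liver and tumour markers, 6 rose and 1 fell. Ly6d, a surface protein of epithelial and lymphoid precursors, was -0.68 and -0.23 against 3.64 and 4.12, at 4.33 ± 0.27 (adjusted p = 0.00145). Afp, the fetal albumin-like protein, was 0.12 and -1.06 in AKP and 1.87 and 1.95 in AKP::Keap1, at 2.38 ± 0.35 (adjusted p = 0.00963). Of 16 gastric and mucin genes tested, 4 rose, among them Muc1, at 2.69 ± 0.51 (adjusted p = 0.0184), with the call lost without AKP female 1 or AKP female 2 (adjusted p = 0.0696 to 0.0816), beside Tff2 above. The share of these epithelial differences that goes with the bile duct markers was not tested.

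**Figure D3:**
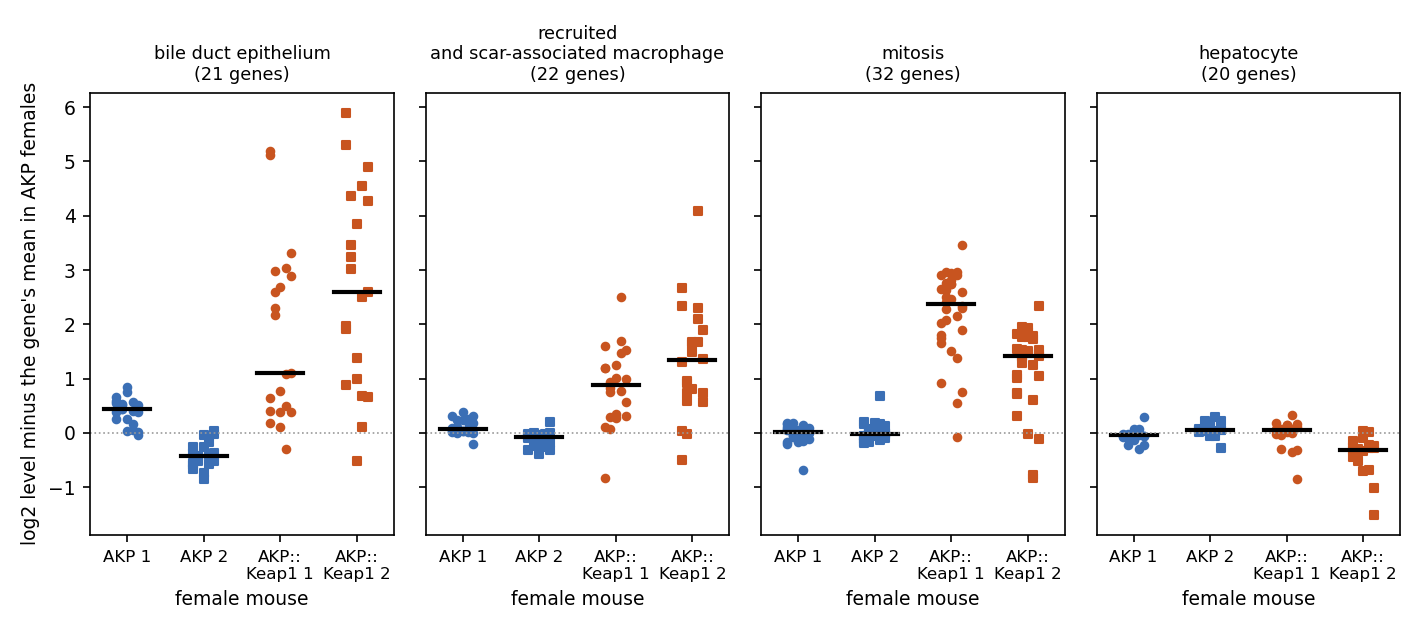
Log2 level of each gene minus its mean in the 2 AKP females (vertical axis), by mouse (horizontal axis), for 4 marker lists, with 1 point per gene and the median as a black bar. Medians reach 1.10 and 2.59 for bile duct, 0.88 and 1.34 for recruited macrophage, 2.37 and 1.42 for mitosis and 0.05 and -0.31 for hepatocyte genes in AKP::Keap1 females 1 and 2.

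In the fit of all 8 arrays, genes of cell division rose more broadly than any other list examined here, by share of members called. That ranking did not hold with the 4 female arrays fitted alone. There, 8 of 32 mitosis genes were called, beside 10 of 24 glutathione transferases. Of 32 mitosis genes tested, 27 rose and none fell, with a median of 1.94, or 1.90 at bounds. Cdc20, the activator of the anaphase ligase, was -2.24 and -2.42 in AKP and 1.13 and 0.00 in AKP::Keap1, at 2.90 ± 0.37 (adjusted p = 0.00714). The kinase Plk1 was -3.08 and -2.99 against -0.07 and -1.08, at 2.46 ± 0.33 (adjusted p = 0.00809), and Cdk1 was -3.92 and -3.86 against -0.95 and -1.97, at 2.43 ± 0.31 (adjusted p = 0.00727). Ccnb1, the cyclin of Cdk1, rose by 2.34 ± 0.30 (adjusted p = 0.00727). The groups did not overlap in these 4, and each was called without each mouse in turn. The proliferation antigen Mki67 was -1.27 and -1.20 against 1.24 and 0.24, at 1.97 ± 0.35 (adjusted p = 0.0149), with the call lost without AKP female 1 or AKP female 2 (adjusted p = 0.0586 to 0.0721). Of the 27 calls, 5 held without each mouse in turn. Kif11, at 0.74 ± 0.59 (adjusted p = 0.399), and Cenpa, at -0.45 ± 0.28 (adjusted p = 0.276), were among the 5 that were not called. AKP::Keap1 female 2 was lower than AKP::Keap1 female 1 in each of the 32 genes, by a median of 1.0, the reverse of the order of these mice in the bile duct markers. Of 34 DNA replication genes, 16 rose and none fell, with a median of 0.72. The helicase subunit Mcm5 was -1.29 and -1.80 against 0.34 and -0.14, at 1.65 ± 0.23 (adjusted p = 0.00825), Mcm6 rose by 1.26 ± 0.17 (adjusted p = 0.00814), and Uhrf1, which maintains DNA methylation at replication forks, by 1.43 ± 0.17 (adjusted p = 0.00615). Pcna, the polymerase clamp, was 2.25 and 2.0 against 2.92 and 2.79, at 0.73 ± 0.13 (adjusted p = 0.016), with the call lost without AKP female 2 or AKP::Keap1 female 1 (adjusted p = 0.0595 to 0.0763). Of 17 p53 target genes, 2 rose and 1 fell, and Cdkn1a, at 1.64 ± 0.75 (adjusted p = 0.163), and Mdm2, at -0.02 ± 0.11 (adjusted p = 0.92), were not called. The cell cycle inhibitor gene Cdkn2a was -5.01 and -4.34 in AKP and -2.15 and -0.21 in AKP::Keap1, at 3.50 ± 0.60 (adjusted p = 0.0136), with the call lost without AKP female 1 or AKP female 2 (adjusted p = 0.0559 to 0.0585).

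Among the immune lists of this paragraph, recruited and scar-associated macrophage genes had the largest share called, 59.1%. The shares of the neutrophil and chemokine lists, 23.8% and 26.9%, were near the 21.4% over all genes. Which cells carried these differences was not tested. Of 22 genes of recruited and scar-associated macrophages tested, 12 rose and 1 fell, with a median of 1.06, and their summed level ran from 6.78 to 6.86 in AKP and from 7.61 to 7.99 in AKP::Keap1. H2-Ab1, an antigen-presenting class II chain, was 3.36 and 3.33 in AKP and 5.03 and 5.45 in AKP::Keap1, at 1.89 ± 0.25 (adjusted p = 0.00743). The tetraspanin Cd9 was 1.46 and 1.38 against 2.61 and 2.72, at 1.25 ± 0.12 (adjusted p = 0.00378). Neither overlapped, and both were called without each mouse in turn. The fractalkine receptor Cx3cr1 had 3.30 ± 0.49 (adjusted p = 0.00963) with the call lost without AKP female 2 (adjusted p = 0.0596), and Trem2, a lipid receptor of scar-associated macrophages, 2.13 ± 0.45 (adjusted p = 0.0232) with the call lost without AKP female 1, AKP female 2 or AKP::Keap1 female 2 (adjusted p = 0.0785 to 0.1). The receptor Fcgr3 fell by 0.67 ± 0.18 (adjusted p = 0.0434) with the call lost without AKP female 1, AKP female 2, AKP::Keap1 female 1 or AKP::Keap1 female 2 (adjusted p = 0.0619 to 0.149). Pan-macrophage genes did not pass, with Adgre1 at 0.07 ± 0.29 (adjusted p = 0.879) and Csf1r at 0.33 ± 0.26 (adjusted p = 0.385). Of 11 resident Kupffer cell genes 1 rose and 1 fell, the median of 0.03 changed sign with the scaling, and Clec4f, at 0.03 ± 0.26 (adjusted p = 0.941), and Vsig4, at 0.08 ± 0.23 (adjusted p = 0.824), were not called. Cd163, the haemoglobin scavenger receptor, was -2.90 and -3.35 against -7.29 and -4.95, at -2.99 ± 0.69 (adjusted p = 0.0306), with the call lost without AKP female 1 or AKP female 2. Cd163 was above background in 1 of the 2 AKP::Keap1 females, so the size of its fall rests in part on signal below background. Of 21 neutrophil genes 5 rose and none fell, with a median of 0.78. S100a8 was -0.56 and -1.33 in AKP and 1.38 and 1.91 in AKP::Keap1, at 2.59 ± 0.31 (adjusted p = 0.00588), S100a9 had 2.33 ± 0.34 (adjusted p = 0.00903), and the elastase Elane was 1.53 and 1.25 against 3.58 and 3.01, at 1.91 ± 0.25 (adjusted p = 0.00731), each called without each mouse in turn. Of 26 chemokines tested 6 rose and 1 fell: beside Cxcl5, the T cell attractant Ccl17 was -5.75 and -6.09 against -3.55 and -2.51, at 2.90 ± 0.33 (adjusted p = 0.00551), and the monocyte attractant Ccl2 had 2.75 ± 0.54 (adjusted p = 0.0198) with the call lost without AKP female 1 or AKP female 2 (adjusted p = 0.0776 to 0.0785). Of 23 T and NK cell genes 1 rose, of 11 B and plasma cell genes none was called, and of 24 interferon-stimulated genes none was called in limma, with medians of 0.40, 0.14 and -0.19. At an unadjusted p below 0.05 there were 0 of the B and plasma cell genes and 4 of the interferon-stimulated genes. Cd3e, at 0.49 ± 0.20 (adjusted p = 0.125), and Isg15, at -0.19 ± 0.28 (adjusted p = 0.66), stand for the T cell and interferon lists.

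Stroma changed in part. Of 30 stellate cell and myofibroblast genes tested, 10 rose and 2 fell, with a median of 0.44, while their summed level stayed between 7.83 and 7.89 in the 4 mice. Tagln, an actin-binding protein of contractile cells, was 1.89 and 1.83 in AKP and 3.64 and 3.36 in AKP::Keap1, at 1.64 ± 0.17 (adjusted p = 0.00421), and held without each mouse in turn. Acta2 rose from -2.70 and -2.70 to -0.89 and -1.02, by 1.75 ± 0.26 (adjusted p = 0.00949), with the call lost without AKP female 2 (adjusted p = 0.0553). Col1a1, the main fibrous collagen, was 0.01 and -0.16 against 0.89 and 1.47, at 1.25 ± 0.26 (adjusted p = 0.0234), with the call lost without AKP female 1, AKP female 2 or AKP::Keap1 female 2 (adjusted p = 0.0669 to 0.109). Reln, a matrix protein of stellate cells, fell from -2.21 and -2.11 to -4.39 and -4.13, a difference of -2.10 ± 0.28 (adjusted p = 0.00784), with the call lost without AKP female 2 (adjusted p = 0.0509). Of 17 matrix metalloproteinases and their inhibitors 4 rose and none fell, among them the inhibitor Timp1, which was -3.51 and -3.78 against -1.53 and -1.02, at 2.38 ± 0.20 (adjusted p = 0.00276). Desmin, at 0.12 ± 0.21 (adjusted p = 0.714), Pdgfrb, at 0.52 ± 0.18 (adjusted p = 0.0891), and Vim, at 0.18 ± 0.20 (adjusted p = 0.563), were not called. Of 24 endothelial genes 1 rose and 5 fell, with a median of -0.12. The angiopoietin receptor Tek was -1.55 and -1.68 against -3.11 and -3.11, at -1.50 ± 0.22 (adjusted p = 0.00971), with the call lost without AKP female 2 (adjusted p = 0.0527), while Cdh5, at 0.12 ± 0.12 (adjusted p = 0.479), and Kdr, at -0.15 ± 0.12 (adjusted p = 0.403), were not called.

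Few hepatocyte identity genes were called. Of 20 hepatocyte markers tested 1 was called, the urea cycle entry enzyme Cps1, at -1.18 ± 0.29 (adjusted p = 0.0342), with the call lost without AKP female 1, AKP female 2 or AKP::Keap1 female 2 (adjusted p = 0.0645 to 0.128), and the median was -0.12. Their summed level ran from 11.88 to 11.99 in AKP and from 11.60 to 11.98 in AKP::Keap1, and each of the 20 was lower in AKP::Keap1 female 2 than in AKP::Keap1 female 1, by a median of 0.37. Of 19 hepatocyte transcription factors and nuclear receptors none rose and 5 fell, with a median of -0.32. That is 26.3% called, beside 21.4% over all genes. Cebpa was 3.62 and 3.88 in AKP and 2.46 and 3.01 in AKP::Keap1, at -1.02 ± 0.22 (adjusted p = 0.0253), with the call lost without AKP female 1, AKP female 2 or AKP::Keap1 female 1 (adjusted p = 0.0588 to 0.118), and Hnf4a, at -0.32 ± 0.16 (adjusted p = 0.201), was not called. Of 31 genes of the urea cycle and amino acid breakdown, none rose and 3 fell. Of 37 P450 genes of families 1 to 3, 2 rose and 1 fell, each losing its call without at least 1 mouse, and the main drug P450 Cyp3a11, at -0.17 ± 0.32 (adjusted p = 0.736), and Cyp2e1, at -0.16 ± 0.14 (adjusted p = 0.447), were not called.

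Among lipid genes, those of fatty acid oxidation included falls and no rises, while the lists of fatty acid synthesis, cholesterol and lipid droplets had calls in both directions. Of 35 fatty acid oxidation and PPAR alpha response genes tested, none rose and 9 fell, with a median of -0.65. The pantetheinase Vnn1, a PPAR alpha target, was 2.79 and 3.41 in AKP and 1.12 and 1.53 in AKP::Keap1, at -1.78 ± 0.26 (adjusted p = 0.00929), called without each mouse in turn. Cpt1a, the gate of mitochondrial entry, was 3.80 and 4.24 against 3.18 and 2.98, at -0.94 ± 0.19 (adjusted p = 0.022), with the call lost without AKP female 2, AKP::Keap1 female 1 or AKP::Keap1 female 2 (adjusted p = 0.0504 to 0.0961). The carnitine carrier Slc25a20 had -1.12 ± 0.20 (adjusted p = 0.0151) with the call lost without AKP female 2 or AKP::Keap1 female 2 (adjusted p = 0.0585 to 0.0673), and Acadl -0.92 ± 0.16 (adjusted p = 0.0133) with the call lost without AKP female 2 or AKP::Keap1 female 2 (adjusted p = 0.061 to 0.0658). Cyp4a10, an omega-hydroxylase of fatty acids, fell short of the threshold at -1.98 ± 0.88 (adjusted p = 0.155), and so did Ppara itself, at -0.15 ± 0.22 (adjusted p = 0.664). In AKP female 2, 31 of the 35 genes were higher than in AKP female 1, by a median of 0.37. Of 23 fatty acid synthesis genes 2 rose and 5 fell, with a median of -0.53. The desaturase Fads1 was 4.14 and 4.11 against 2.95 and 2.85, at -1.22 ± 0.14 (adjusted p = 0.00522), and Gpam, which starts glycerolipid synthesis, was -1.01 and -0.89 against -2.78 and -2.35, at -1.61 ± 0.17 (adjusted p = 0.00426). Scd2, a stearoyl desaturase found outside adult hepatocytes, rose from 0.84 and -0.21 to 3.30 and 3.20, by 2.93 ± 0.33 (adjusted p = 0.00498). These 3 were called without each mouse in turn, whereas the hepatocyte desaturase Scd1, at -1.14 ± 0.33 (adjusted p = 0.0532), and Fasn, at -0.55 ± 0.22 (adjusted p = 0.117), were not called. Of 20 genes of lipid droplets and lipid uptake 2 rose and 4 fell, with a median of -0.12. Of 24 cholesterol genes 4 rose and 1 fell, and the 4 rises each lost their call without at least 1 mouse. Cyp51, of late sterol synthesis, had 1.18 ± 0.25 (adjusted p = 0.0253) with the call lost without AKP female 1, AKP female 2 or AKP::Keap1 female 1 (adjusted p = 0.053 to 0.106). Insig1, which holds back sterol synthesis, fell by 0.89 ± 0.13 (adjusted p = 0.00951) and was called without each mouse in turn. In sugar metabolism 4 of 32 genes rose and 4 fell, a share of 25%, near that over all genes. The liver pyruvate kinase Pklr was 0.32 and 0.36 in AKP and -1.78 and -1.65 in AKP::Keap1, at -2.06 ± 0.18 (adjusted p = 0.00312), called without each mouse in turn.

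Among growth hormone targets and sex-biased liver genes the calls were falls. Of 21 tested none rose and 8 fell, with a median of -0.81. Mup3 was 6.95 and 7.06 in AKP and 5.21 and 5.02 in AKP::Keap1, at -1.89 ± 0.16 (adjusted p = 0.00277), called without each mouse in turn. Igfals, which stabilises circulating IGF1, was 2.08 and 2.16 against 1.25 and 1.37, at -0.81 ± 0.12 (adjusted p = 0.0095), with the call lost without AKP female 2 (adjusted p = 0.0556). Mup21 had -2.08 ± 0.28 (adjusted p = 0.00784) with the call lost without AKP female 2 (adjusted p = 0.0514). Socs2, the feedback inhibitor induced by growth hormone, was 2.78 and 3.28 against 0.64 and 0.17, at -2.63 ± 0.69 (adjusted p = 0.0421), with the call lost without AKP female 1, AKP female 2, AKP::Keap1 female 1 or AKP::Keap1 female 2 (adjusted p = 0.0941 to 0.167). Hsd3b5, a male-biased steroid enzyme, was -3.70 and -2.07 against -5.28 and -6.51, at -3.01 ± 0.64 (adjusted p = 0.0247), with the call lost without AKP female 2 or AKP::Keap1 female 2. Hsd3b5 was well above background in 1 of the 2 AKP::Keap1 females. The receptor Ghr, at -0.46 ± 0.14 (adjusted p = 0.0617), Igf1, at 0.05 ± 0.23 (adjusted p = 0.89), and Stat5b, at -0.40 ± 0.27 (adjusted p = 0.32), were not called. In AKP::Keap1 female 2, 17 of the 21 were lower than in AKP::Keap1 female 1, by a median of 0.47.

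Among secreted and signalling genes the members moved in both directions. Of 28 cytokines and growth factors 6 rose and 4 fell, with a median of 0.17. Il22, an epithelial repair cytokine, was -3.81 and -4.15 in AKP and -2.89 and -2.93 in AKP::Keap1, at 1.06 ± 0.16 (adjusted p = 0.00942), called without each mouse in turn. Lymphotoxin beta, Ltb, rose by 1.81 ± 0.30 (adjusted p = 0.0125) with the call lost without AKP female 1 or AKP female 2 (adjusted p = 0.0511 to 0.0658). Vegfa, the main endothelial growth factor, fell from 2.01 and 2.32 to 0.80 and 1.21, at -1.16 ± 0.18 (adjusted p = 0.0104), with the call lost without AKP female 2 (adjusted p = 0.0587). Of 14 Notch pathway genes 3 rose and 1 fell, led by the ligand Jag2, which was below background in AKP and at least 2.29-fold higher in AKP::Keap1 (adjusted p = 0.0101). Of 15 YAP target genes 4 rose and none fell, each losing its call without at least 1 mouse, and Ccn1, at -0.15 ± 0.37 (adjusted p = 0.801), and Ccn2, at 1.07 ± 0.41 (adjusted p = 0.113), were not called. Of 19 pericentral and periportal genes none rose and 3 fell: the Wnt pathway genes Znrf3, at -1.48 ± 0.23 (adjusted p = 0.0105) with the call lost without AKP female 2 (adjusted p = 0.0641), Axin2, at -1.21 ± 0.32 (adjusted p = 0.0435) with the call lost without AKP female 1, AKP female 2, AKP::Keap1 female 1 or AKP::Keap1 female 2 (adjusted p = 0.0895 to 0.163), and Lgr5, at -1.02 ± 0.26 (adjusted p = 0.0405) with the call lost without AKP female 2, AKP::Keap1 female 1 or AKP::Keap1 female 2 (adjusted p = 0.0989 to 0.16). Glul, the pericentral glutamine synthetase, had -0.97 ± 0.32 (adjusted p = 0.0789) and was not called. In the plasma protein lists 2 of 23 acute phase genes and 4 of 36 complement and coagulation genes fell and none rose, which is 8.7% and 11.1% called beside 21.4% over all genes. Plg, the precursor of plasmin, was 6.69 and 6.63 in AKP and 5.84 and 5.58 in AKP::Keap1, at -0.95 ± 0.13 (adjusted p = 0.00873), called without each mouse in turn.

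In 5 stress and housekeeping lists 13.3% to 26.7% of the members were called, against 21.4% over all genes. Of 37 proteasome genes 3 rose and 2 fell, with a median of 0.18. Psmb5 was 5.78 and 5.75 against 6.74 and 6.51, at 0.86 ± 0.13 (adjusted p = 0.0103), with the call lost without AKP female 2 (adjusted p = 0.0581), and the activator Psme4 had -1.08 ± 0.15 (adjusted p = 0.00869) with the call lost without AKP female 2 (adjusted p = 0.0528). Of 16 endoplasmic reticulum chaperones none rose and 4 fell, and Hspa5 was not called, at 0.01 ± 0.14 (adjusted p = 0.982). Of 15 heat shock genes 3 rose and 1 fell. The small heat shock genes Cryab, -0.48 and -0.55 against 0.57 and 0.80 at 1.21 ± 0.15 (adjusted p = 0.00689), and Hspb1, 1.31 and 1.18 against 2.36 and 2.42 at 1.15 ± 0.12 (adjusted p = 0.00421), were called without each mouse in turn. Of 15 ATF4 response genes 2 rose, Ddit4, at 1.99 ± 0.31 (adjusted p = 0.0112), with the call lost without AKP female 2 (adjusted p = 0.0608), and Slc7a1, at 1.18 ± 0.26 (adjusted p = 0.0268), with the call lost without AKP female 1, AKP female 2 or AKP::Keap1 female 2 (adjusted p = 0.0908 to 0.11), while Asns, at 1.92 ± 0.76 (adjusted p = 0.12), and Atf4, at -0.26 ± 0.11 (adjusted p = 0.147), were not called. Of 19 clock genes 3 fell and 16 were not called. AKP::Keap1 female 2 lay above AKP::Keap1 female 1 in 12 of the 19, and the median gap over the 19 was 0.95. Arntl, lower in AKP::Keap1 female 2, was 0.25 and -2.25 in AKP and 0.76 and -0.89 in AKP::Keap1. The mice of each group lay farther apart in Arntl than the group means, whose difference was 0.94 ± 1.22 (adjusted p = 0.612).

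**Figure D4:**
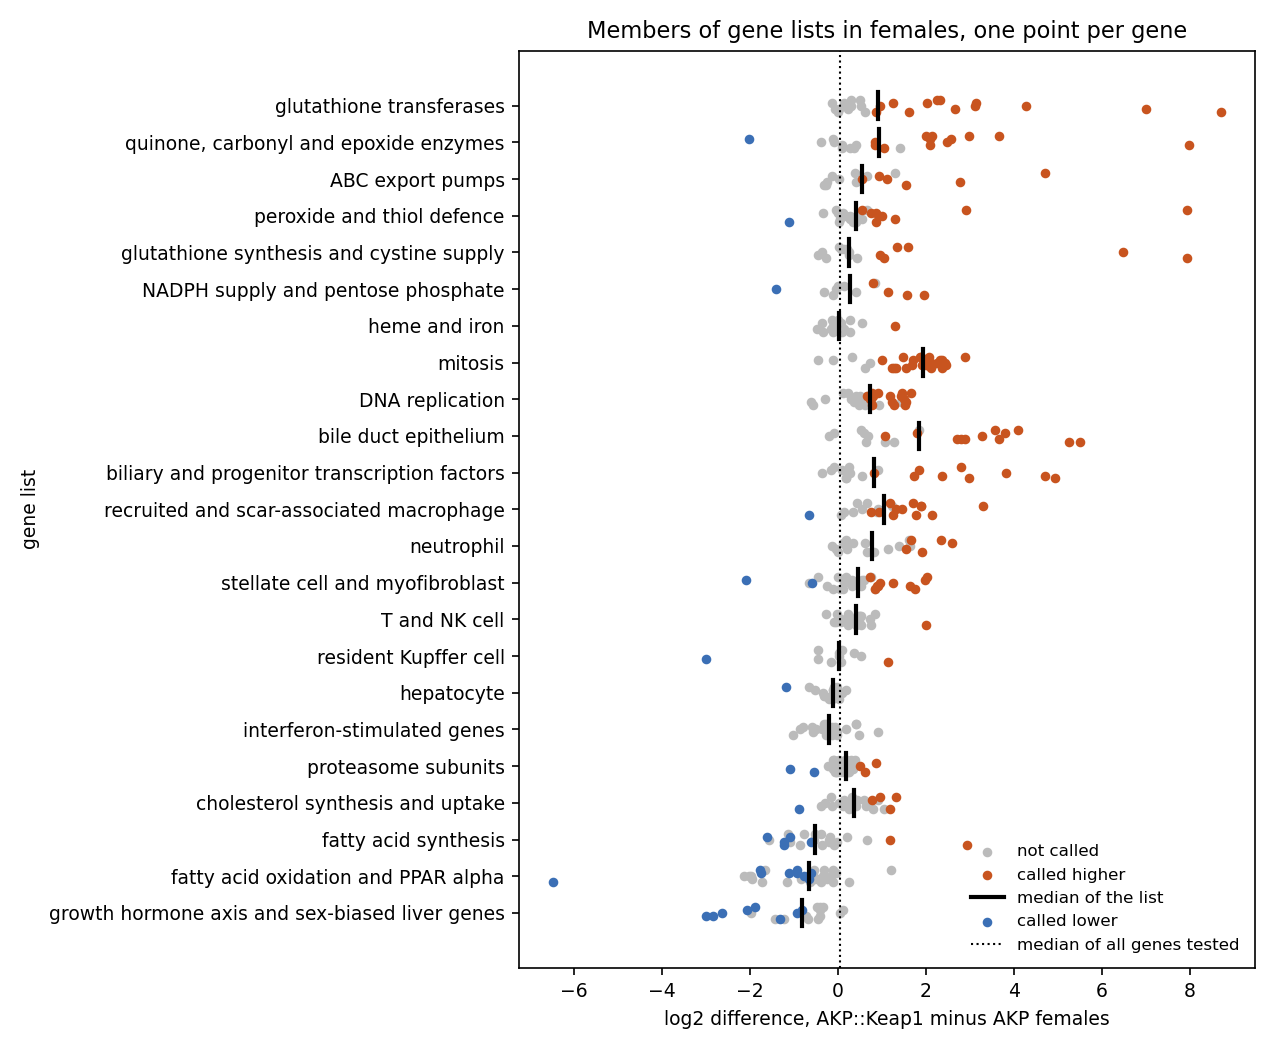
Log2 difference between AKP::Keap1 and AKP females (horizontal axis) of each tested member of 23 gene lists (vertical axis), coloured by call, with the list median as a black bar and the median of all genes, 0.047, as a dotted line. Mitosis and bile duct lists have the highest medians, 1.94 and 1.84, and the growth hormone list the lowest, -0.81.

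The same genotypes in males gave a second comparison with no mice in common. It came from the same fit and used the same estimate of each gene's spread, so the calls in the 2 sexes are not independent. It called 4464 genes, 28.2%, and 1695 genes were called in the same direction in both sexes, which is 50% of the female calls and 38% of the male calls, while 52 were called in opposite directions. Keap1 fell by 2.34 in females and its difference in males was -3.36 ± 0.15, and the 14 largest female rises above were called in males as well. The difference between the female and the male change was itself tested for each gene, and 272 genes, 1.72%, passed, 65 with a higher value in females and 207 with a lower one. That count fell when a mouse was left out: leaving out AKP female 1 gave 4, AKP female 2 gave 2, and either AKP::Keap1 female gave 0, while the female genotype calls numbered 729 to 2240 in the same fits. Sex also goes with slide and with the day of scanning here and cannot be told apart from them.

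Within that limit, some defence genes rose more in females. Gstp1 differed by 2.32 ± 0.15 in females and 0.09 ± 0.15 in males, so that the female difference was 2.23 ± 0.21 (adjusted p = 0.0175) above the male one. For Gstm2 the values were 2.65 ± 0.12 and 1.59 ± 0.12, and the female difference was 1.06 ± 0.17 (adjusted p = 0.0474) above the male one. The small heat shock gene Hspb1 rose in females and had -0.38 ± 0.12 in males, a gap of 1.53 ± 0.17 (adjusted p = 0.0247). Gfra4, a receptor chain for the factor persephin, was 3.70 and 2.86 in AKP and 6.77 and 6.47 in AKP::Keap1 females, at 3.34 ± 0.30 (adjusted p = 0.00317), against 0.01 ± 0.30 in males, a gap of 3.32 ± 0.42 (adjusted p = 0.0338), although a second probe in females gave -0.43. Mfsd2a, a carrier of lysophospholipids, was 1.84 and 2.61 against 2.90 and 2.71 in females and was not called there, at 0.57 ± 0.25 (adjusted p = 0.147), and its male difference was -3.35 ± 0.25. In the other direction, Abcc12 rose by 2.76 ± 0.19 in females and 6.88 ± 0.19 in males, a gap of -4.11 ± 0.28 (adjusted p = 0.0162). Tafa2, a secreted neural protein, was -0.12 and 0.24 in AKP and 1.62 and 1.53 in AKP::Keap1 females, at 1.51 ± 0.29 (adjusted p = 0.018), against 5.82 ± 0.29 in males. The female call was lost without AKP female 1, AKP female 2, AKP::Keap1 female 1 or AKP::Keap1 female 2. Its male means were -5.51 in AKP and 0.305 in AKP::Keap1, so the sexes lay farther apart in AKP than in AKP::Keap1. Bard1, the partner of Brca1, had 0.61 ± 0.23 (adjusted p = 0.103) in females and 4.46 ± 0.23 in males, while a second Bard1 probe gave 1.78 in females. Il1rn, the interleukin-1 receptor antagonist, was -1.41 and -0.74 in AKP and -3.34 and -2.60 in AKP::Keap1 females, at -1.90 ± 0.37 (adjusted p = 0.0195) with the call lost without AKP female 2 or AKP::Keap1 female 1 (adjusted p = 0.0671 to 0.0945), and 1.31 ± 0.37 in males, a gap of -3.21 ± 0.52 (adjusted p = 0.0478). Mup5 and Mup3 fell in females and had -0.24 ± 0.28 and -0.55 ± 0.16 in males, gaps of -2.60 ± 0.39 (adjusted p = 0.0443) and -1.34 ± 0.22 (adjusted p = 0.049). Nfe2l1 and Idh1 fell in females and had -0.27 ± 0.12 and -0.17 ± 0.13 in males, gaps of -1.20 ± 0.17 (adjusted p = 0.0413) and -1.25 ± 0.18 (adjusted p = 0.0427).

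**Figure D5:**
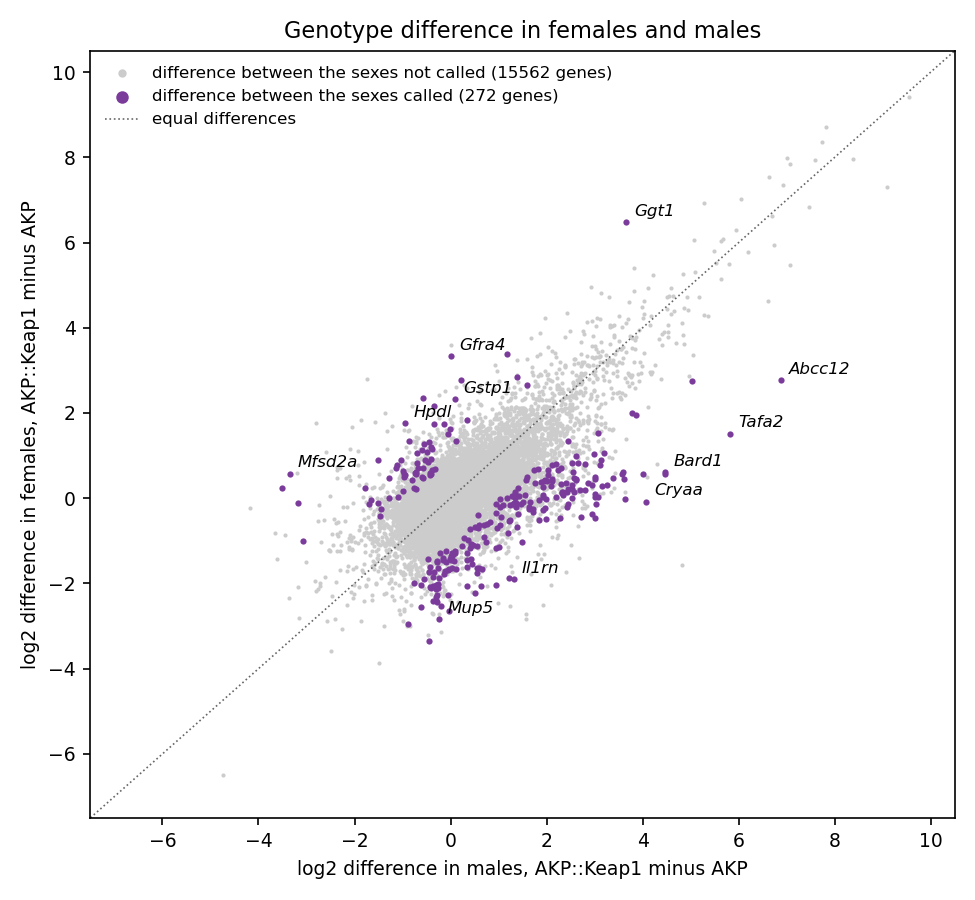
Log2 difference between AKP::Keap1 and AKP in females (vertical axis) against the same difference in males (horizontal axis) for 15834 genes, with the 272 genes called for a difference between the sexes in purple and equal differences as a dotted line. Gstp1 and Gfra4 lie above that line, and Abcc12, Tafa2, Bard1 and Mup5 below it.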

How the data were processed

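Total RNA of whole liver, 500 ng per mouse, was labelled with Cy3 and put on 1-colour Agilent arrays (design 026655), 1 mouse per array. Per the file headers, the deposited intensity is the processed signal of Feature Extraction 10.7.3.1, background-subtracted within each array and not scaled between arrays. The submitters' processing notes name version 10.1. The deposited series matrix values were equal to that signal, before any log, for all 355176 values compared, so they carry no scaling, centring or change of direction. Their log2 was used as the alternative with no scaling.

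Outlier spots were left out, spots of a probe were averaged, and each array's 75th percentile was subtracted from log2. Probes were named through RefSeq accessions of GRCm38.p6: 26055 of 39429 had 1 symbol and 13374 were unnamed. Probes had to be well above background on 2 or more of the 8 arrays. The brightest probe stood for a gene. A group-means model over all 8 arrays was fitted in limma 3.58.1 (R 4.3.3), two-sided, with Benjamini-Hochberg adjustment. A gene above background in both mice of 1 group and in neither of the other has a lower bound in place of a fold: the bright group's mean against the higher of the dim probe's own signal and the lowest signal above background on each array.

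The members and the 59 gene lists were chosen with earlier results of these data known. Genes named are the 15 largest rises and falls among called genes without overlap, 8 genes each way for the difference between the sexes, and list members with the smallest adjusted p (up to 5 each way) or with a role to describe. Some genes that this rule names are not reported here. The normexp alternative (offset 50) used median spot signals in place of mean ones. The fit was tested on simulated data for this comparison of 15834 genes with 200 changed: 39.6% of 2-fold and 79% of 4-fold changes were recovered, and 4.83% of calls were false. The labels do not say whether same-numbered mice are related, so pairing was left out of the main fit. The p-values rest on each gene's spread within the groups of all 8 arrays, males included, moderated across genes by limma. The number of arrays limits the precision.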

Additional observations from a re-analysis of the deposited data

Results flagged for a closer look

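The test of the difference between the female and the male change between genotypes picked out the following genes, with the female minus male value on the log2 scale, and the share of genes passing was 1.72%. It was higher in females for Mfsd2a (3.93), Lypd10 (3.73), Gfra4 (3.32), Kyat3 (3.05), Chrdl2 (2.95), Ggt1 (2.83), Hpdl (2.71), Krtap19-4 (2.52), Gstp1 (2.23), Manf (1.62), Hspb1 (1.53) and Gstm2 (1.06). Lypd10 was not above background in any of the 4 females, so its value comes from the males. Chrdl2 had means of -7.13 in AKP females and -4.25 in AKP males, but -4.76 and -4.83 in AKP::Keap1 females and males. For Chrdl2, as for Gfra4, the sexes lay apart mainly in AKP. Ggt1 was not above background in either AKP group, so its value rests in part on signal below background. Kyat3, a kynurenine aminotransferase, was 4.68 and 4.32 against 4.49 and 4.27 in females and differed by -3.17 ± 0.22 in males.

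It was lower in females for Tafa2 (-4.30), Cryaa (-4.16), Abcc12 (-4.11), Tbx10 (-3.88), Bard1 (-3.85), Obp1a (-3.67), Myod1 (-3.48), Lman1l (-3.45), Il1rn (-3.21), Rnf225 (-2.90), Mup5 (-2.60), Xist (-2.52), Olfr125 (-2.06), Il1a (-1.58), Pparg (-1.49), Mup3 (-1.34), Notum (-1.27), Idh1 (-1.25) and Nfe2l1 (-1.20). Rnf225 was above background in the AKP females and in no other group, Olfr125 was below it in AKP::Keap1 females and Xist in AKP males, so the values of these 3 also rest in part on signal below background. Pparg, the adipogenic nuclear receptor, was 0.80 and 1.04 in AKP and 0.74 and 0.86 in AKP::Keap1 females, overlapping, against a male difference of 1.37 ± 0.16. Notum, a Wnt inhibitor, was 3.41 and 3.63 against 3.43 and 3.27 in females and differed by 1.10 ± 0.14 in males. Xist was -2.77 and -2.92 in AKP and -4.10 and -3.64 in AKP::Keap1 females, at -1.03 ± 0.23 (adjusted p = 0.0267), with the call lost without AKP female 1, AKP female 2 or AKP::Keap1 female 1 (adjusted p = 0.0904 to 0.0971).

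Outside the named genes, 137 unnamed probes were well above background on both AKP::Keap1 females and on neither AKP female, and 133 the other way round. Among named probes the numbers were 253 and 180.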

How the results depend on the processing

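Of the 3390 genes called in females, 464 (224 higher and 240 lower) were called in the same direction in each of the other settings tried. The count fell to 1230 with the 4 female arrays fitted alone and to between 729 and 2240 with 1 female left out. The other settings gave 2381 to 3795 calls, within 1.5 times the main count. The setting of genes above background on all 4 female arrays tested 3033 of the 3390 female calls. Calls not tested there could not count among the 464. The count of 272 for the difference between the sexes was less stable: 160 after quantile normalization, 118 with no filter on dim probes, 1189 after the shift to the array median (930 higher in females, with the median of all genes moved to 0.25), 460 with no scaling (15 higher, median -0.38), 541 with trend and robust variance, and 0 to 4 with 1 female left out. Deviations of same-numbered mice correlated at -0.156 between the female groups and at -0.0554 to 0.123 between the other pairs of groups, and the labels do not say what the numbers share. With the replicate number as a block the calls were 2949 in females and 59 for the difference, and with the AKP::Keap1 numbers crossed, an alternative chosen after seeing the data, 2693 and 23. Of the female calls, 19 turned direction with the mean over probes, 3 with normexp and 1 among genes above background on all 4 female arrays. The named genes whose difference in females turned direction were not called: Bach1 with the median shift (-0.12) and with 1 mouse left out (-0.19 to 0.19), Cryaa with no scaling (0.033) and with 1 mouse left out (-0.17 to 0.0028), Obp1a with no scaling (0.085), with normexp (0.0077) and with 1 mouse left out (-0.20 to 0.14), Lypd10 with normexp (-0.075), Lman1l with the mean over probes (-0.091), and Kyat3 with 1 mouse left out (-0.30 to 0.057). The medians of the heme and iron, bile acid, urea cycle, ATF4, heat shock, glycolysis, TNF receptor, Kupffer cell and pancreatic acinar lists changed sign with the scaling. The causes were not tested. With 2 mice a group, dim genes are the least certain.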
